A study of Mus musculus with 8 samples.

Results

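The genes described here form the signalling network of the TGF-beta superfamily: the TGF-beta, BMP and activin ligands, their receptors, the SMAD proteins, the ID proteins and secreted antagonists. They were taken from the array by symbol: Tgfb1 to Tgfb3, Tgfbr1 to Tgfbr3, every symbol starting with Bmp and a digit, with Bmpr or with Acvr, Smad1 to Smad9, Id1 to Id4, Inha, Inhba to Inhbe, Grem1, Nog, Chrd, Fst and Fstl1. This gave 49 of the 22911 genes named on the array, each read from its brightest probe, and 45 of them were bright enough to be tested. TEC100.4 is an immortalized mouse cell line of cortical thymic epithelial origin, and the study carried a mutant TFII-I, the product of Gtf2i, in it under a doxycycline-inducible system, as the δ isoform in one line and the β isoform in another. The 4 groups of 2 arrays were the mutant δ line with doxycycline, the mutant δ line without doxycycline, the mutant β line with doxycycline and the mutant β line without doxycycline, all after 24 h of culture, and total RNA was hybridised to 1-colour mouse expression arrays. These group names follow the titles, while the genotype label of the untreated samples names wild type TFII-I. The labels give no further detail of either line, such as the number of clones, and neither the parental line nor a treated line lacking the mutant was analysed here. Doxycycline itself and the induced mutant therefore cannot be told apart, and a difference between the δ and the β line cannot be told apart from a difference between any 2 derivatives of TEC100.4. Every p-value rests on the spread between the 2 arrays of a group, pooled over the 4 groups and moderated across genes. The labels do not state whether both arrays of a group stem from different cultures, so that spread may be technical.

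Ligands of this superfamily are secreted dimers that bring together type II and type I receptor kinases at the cell surface. The type I receptor then phosphorylates a receptor-regulated SMAD, Smad2 or Smad3 for TGF-beta and activin and Smad1, Smad5 or Smad9 for BMPs, which enters the nucleus with Smad4. Smad6 and Smad7 are inhibitory SMADs that are themselves induced by the pathway, and the Id genes, which encode inhibitors of basic helix-loop-helix transcription factors, are classical BMP targets. In the thymus, BMP4 from the surrounding mesenchyme and endothelium is known to act on thymic epithelial cells and to sustain Foxn1, the master transcription factor of that lineage.

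Levels are given as log2 of the spot signal over the 75th percentile of the same array, so that a level of 0 is as bright as that percentile, and levels of different genes are not set against each other. Differences are log2 ratios from a limma fit over all 19068 genes tested, with Benjamini-Hochberg adjusted p-values and a threshold of 0.05. Between 39578 and 45156 of 56605 probes were well above background on an array, at least 43424 on each array with doxycycline and at most 40759 on each array without it. The arrays with doxycycline filled row 1 of the single slide and those without it row 2, so slide row and treatment cannot be told apart. Likewise the δ arrays all lay in columns 3 and 4 and the β arrays in columns 1 and 2, so slide column and line cannot be told apart. On δ replicate 1 without doxycycline, 78 of 1008 square areas of the array were locally too dark or too bright and their spots were treated as missing. Tgfb3, Bmp8a, Bmpr1b and Tgfbr3 lost that array, so their δ level without doxycycline comes from 1 array. Of the 45 tested members, 43 were well above background on every array with a value. The exceptions were Bmp5, with 6 arrays, and Grem1, with only both δ arrays with doxycycline. Bmp2, well above background on 1 array, and Bmp8b, Bmp15 and Acvr1c, on none, were not tested.

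The targeted gene was read first. Gtf2i stood at a log2 level of 5.28 and 5.26 in δ with doxycycline and 5.2 and 5.07 in δ without it, against 4.58 and 4.65 in β with doxycycline and 4.39 and 4.63 in β without it. Only the brightest of the 3 Gtf2i probes was read. This probe did not show the induction: the log2 difference for doxycycline was 0.14 ± 0.113 (SE) in the δ line and 0.10 ± 0.113 in the β line (limma adjusted p = 0.572 and 0.662). Whether this probe lies in the introduced sequence was not tested. The δ line exceeded the β line by 0.66 with doxycycline and by 0.63 without it (limma adjusted p = 0.0103 and 0.0125).

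The labelled cell type was checked against markers. Of 9 cortical thymic epithelial markers, Prss16, Foxn1, Ctsl and Ccl25 were well above background on all 8 arrays, while the defining cortical gene Psmb11, Enpep and Cd83 were so on none. Of 7 medullary markers, Aire, Krt14, Cldn4 and Tnfrsf11a were so on all 8 and Krt5 on all 7 arrays with a value. Ccl21a was so on 1 array and Fezf2 on none. Among general epithelial genes, Krt8 and Krt18 were well above background on all arrays, Cdh1 on 3, Epcam on 1 and Cldn3 on none. Col1a1, Col1a2, Col3a1, Dcn, Pdgfra and Pdgfrb, genes used as fibroblast markers, were well above background on all 8, and Lum on 3. Of endothelial markers, Pecam1, Cdh5 and Kdr were so on all 8, Tek on 6 and Emcn on none. Of the lists for blood cells, Cd3e, Cd4, Cd8a and Lck of thymocytes and Cd68 and Csf1r of macrophages were so on all 8, while Rag1, Cd3g, Ptprc and Adgre1 were so on none.

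Several genes of the BMP arm differed between the lines. In the δ line, the BMP ligand genes Bmp7 and Bmp4, the SMAD genes Smad9 and Smad6 and the BMP targets Id3 and Id4 were higher than in the β line, both with and without doxycycline. The activin subunit genes Inhba and Inhbb were lower in the δ line in both comparisons. Bmp7 differed by 5.65-fold with doxycycline and 5.72-fold without it, Smad9 by 2.3-fold and 2.72-fold, and the other 6 genes by between 1.51-fold and 1.9-fold. These 8 genes are 17.8% of the 45 tested members, and 10.8% of all genes tested passed the threshold in the same direction in both comparisons; 6 members were higher, with 6.52% of all genes, and 2 lower, with 4.28%. The comparisons with and without doxycycline used different arrays of the same lines.

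RefSeq promoter windows on GRCm38.p6, from 250 bases before to 50 bases after the annotated start, were found for 7 of these 8 genes and are printed here because these genes passed between the lines in both comparisons, Inhba and Inhbb as lower in the δ line and the others as higher. Bmp4 lies at chr14:46390620-46390919 on the minus strand, Smad6 at chr9:64022010-64022309 on the minus strand and Smad9 at chr3:54755332-54755631 on the plus strand. Id3 lies at chr4:136143572-136143871 and Id4 at chr13:48260866-48261165, both on the plus strand. Inhba lies at chr13:16011601-16011900 on the plus strand and Inhbb at chr1:119422199-119422498 on the minus strand. Each is given 5′ to 3′ on the strand of the gene, with capitals for matches to 4 motifs: the palindromic SMAD element GTCTAGAC, the GC-rich SMAD element GGCGCC, the SMAD box CAGACA and the E-box CACGTG, of the kind TFII-I is known to bind.
Bmp4: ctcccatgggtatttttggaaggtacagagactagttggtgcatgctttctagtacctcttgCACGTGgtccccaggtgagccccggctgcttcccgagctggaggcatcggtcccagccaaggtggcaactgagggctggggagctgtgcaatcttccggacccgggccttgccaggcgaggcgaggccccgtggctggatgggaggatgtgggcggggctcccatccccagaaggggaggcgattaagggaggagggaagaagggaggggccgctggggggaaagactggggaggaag
Smad6: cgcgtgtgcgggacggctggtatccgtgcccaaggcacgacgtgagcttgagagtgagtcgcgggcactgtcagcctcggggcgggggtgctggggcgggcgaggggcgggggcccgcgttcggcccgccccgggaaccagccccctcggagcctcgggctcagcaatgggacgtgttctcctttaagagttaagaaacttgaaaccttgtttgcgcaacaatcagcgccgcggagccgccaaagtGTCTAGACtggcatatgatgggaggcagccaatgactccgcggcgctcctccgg
Smad9: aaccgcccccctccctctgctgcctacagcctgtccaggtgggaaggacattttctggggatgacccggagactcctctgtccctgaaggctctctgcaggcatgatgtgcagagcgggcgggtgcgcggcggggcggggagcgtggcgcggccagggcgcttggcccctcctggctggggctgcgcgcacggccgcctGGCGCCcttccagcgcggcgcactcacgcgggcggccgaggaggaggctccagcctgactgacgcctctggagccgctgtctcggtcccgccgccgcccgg
Id3: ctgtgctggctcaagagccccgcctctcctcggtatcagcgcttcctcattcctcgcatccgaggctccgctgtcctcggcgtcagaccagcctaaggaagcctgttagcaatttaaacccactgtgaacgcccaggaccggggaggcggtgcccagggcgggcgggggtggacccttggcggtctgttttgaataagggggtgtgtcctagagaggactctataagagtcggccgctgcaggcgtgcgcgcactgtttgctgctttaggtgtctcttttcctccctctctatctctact
Id4: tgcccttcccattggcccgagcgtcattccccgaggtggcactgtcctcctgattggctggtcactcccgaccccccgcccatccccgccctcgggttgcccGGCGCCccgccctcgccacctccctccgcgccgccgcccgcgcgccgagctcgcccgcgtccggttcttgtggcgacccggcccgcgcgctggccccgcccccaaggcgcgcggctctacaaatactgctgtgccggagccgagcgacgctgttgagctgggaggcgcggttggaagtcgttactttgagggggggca
Inhba: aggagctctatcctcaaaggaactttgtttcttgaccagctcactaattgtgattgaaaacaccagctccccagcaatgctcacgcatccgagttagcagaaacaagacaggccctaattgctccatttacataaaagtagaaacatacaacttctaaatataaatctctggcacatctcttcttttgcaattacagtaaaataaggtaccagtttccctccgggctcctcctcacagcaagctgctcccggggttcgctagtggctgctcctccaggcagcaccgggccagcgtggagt
Inhbb: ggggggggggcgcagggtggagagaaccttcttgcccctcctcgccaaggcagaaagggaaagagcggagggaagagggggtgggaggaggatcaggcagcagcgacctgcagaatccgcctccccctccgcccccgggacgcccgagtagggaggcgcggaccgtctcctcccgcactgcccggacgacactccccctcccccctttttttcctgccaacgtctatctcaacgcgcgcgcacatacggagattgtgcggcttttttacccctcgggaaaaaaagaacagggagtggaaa
Both strands were searched, and no matches overlapped. Smad6 held GTCTAGAC with its first base 4 bases before the start, a match found in 70 of 32851 RefSeq promoters (0.213%). Smad9 held GGCGCC 51 bases and Id4 148 bases before the start, a match in 11.9% of promoters and in 11 of the 36 members with a window. Bmp4 held CACGTG 188 bases before the start, a match in 7.15% of promoters and in 4 of the 36 members. CAGACA was in none of these 7 windows, against 21% of promoters and 7 of the 36 members. The windows of Id3, Inhba and Inhbb held none of the 4. The motifs were chosen after the levels were known, and a match is a string of letters in the window, not a binding site.

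With doxycycline, 12 of 45 members passed the threshold between the lines, or 26.7%, against 19.1% of all genes tested; 10 were higher in the δ line, where 11.9% of all genes were higher, and 2 were lower, where 7.2% of all genes were lower. Without doxycycline, 9 of 45 passed, or 20%, against 15.2% of all genes; 7 were higher, with 8.35% of all genes, and 2 were lower, with 6.84%. The median log2 difference over the members was 0.21 in each comparison, while that over all genes tested was -0.00 in each. In cultures measured in bulk, fewer cells with a transcript and less of it per cell cannot be told apart.

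Among the TGF-beta ligand genes, none of Tgfb1, Tgfb2 and Tgfb3 passed between the lines. Tgfb3, picked by the brightness of its probe, had a log2 level of 4.21 and 4.26 in δ with doxycycline and 4.11 in δ without it, against 3.92 and 4.07 in β with doxycycline and 3.75 and 3.95 in β without it. The δ arrays lay above the β arrays in each comparison, by 0.24 and 0.26 on the log2 scale, without passing the test (limma adjusted p = 0.21 and 0.3). Tgfb1 differed by -0.33 with doxycycline and by -0.08 without it, and Tgfb2 by 0.14 and 0.36.

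Of 7 BMP ligand genes tested, Bmp7 and Bmp4 were higher in the δ line and none was lower. Bmp7, a BMP made by many epithelia, had log2 levels of 1.30 and 1.30 in δ with doxycycline and 1.11 and 1.08 in δ without it, against -1.14 and -1.25 in β with doxycycline and -1.48 and -1.36 in β without it. All 4 δ arrays stood well above all 4 β arrays, and arrays of a group differed by far less than the lines. The log2 difference was 2.50 ± 0.0953 (SE) with doxycycline and 2.52 ± 0.0953 without it (limma adjusted p = 1.59e-05 and 1.6e-05). Bmp4, the thymic BMP ligand named above, had log2 levels of 3.88 and 3.82 in δ with doxycycline and 3.65 and 3.69 in δ without it, against 3.05 and 3.0 in β with doxycycline and 2.80 and 3.13 in β without it. Again no δ array reached down to a β array. The difference was 0.83 ± 0.126 with doxycycline and 0.71 ± 0.126 without it (limma adjusted p = 0.00631 and 0.0117). Bmp3, Bmp5, Bmp6, Bmp8a and Bmp10 differed by between -0.30 and 0.29 with doxycycline and between -0.39 and 0.16 without it, and none passed.

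Of 5 activin and inhibin subunit genes, Inhba and Inhbb were lower in the δ line in both comparisons and none was higher. These 2 genes encode the subunits whose dimers are activins A and B, while Inha encodes the inhibin alpha subunit. Inhba had log2 levels of -0.20 and -0.19 in δ with doxycycline and -0.18 and -0.13 in δ without it, against 0.72 and 0.41 in β with doxycycline and 0.58 and 0.84 in β without it. Inhbb stood at 0.81 and 0.83 in δ with doxycycline and 0.75 and 0.59 in δ without it, against 1.81 and 1.68 in β with doxycycline and 1.43 and 1.70 in β without it. For both genes every δ array was below every β array. The log2 difference with and without doxycycline was -0.76 ± 0.139 (SE) and -0.87 ± 0.139 for Inhba and -0.92 ± 0.125 and -0.90 ± 0.125 for Inhbb (limma adjusted p between 0.00386 and 0.0131). Inha (0.80 and 0.46), Inhbc (-0.39 and 0.27) and Inhbe (-0.73 and 0.00) did not pass, and Inhbe and Inhbc had no common sign in the 2 comparisons.

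**Figure D1:**
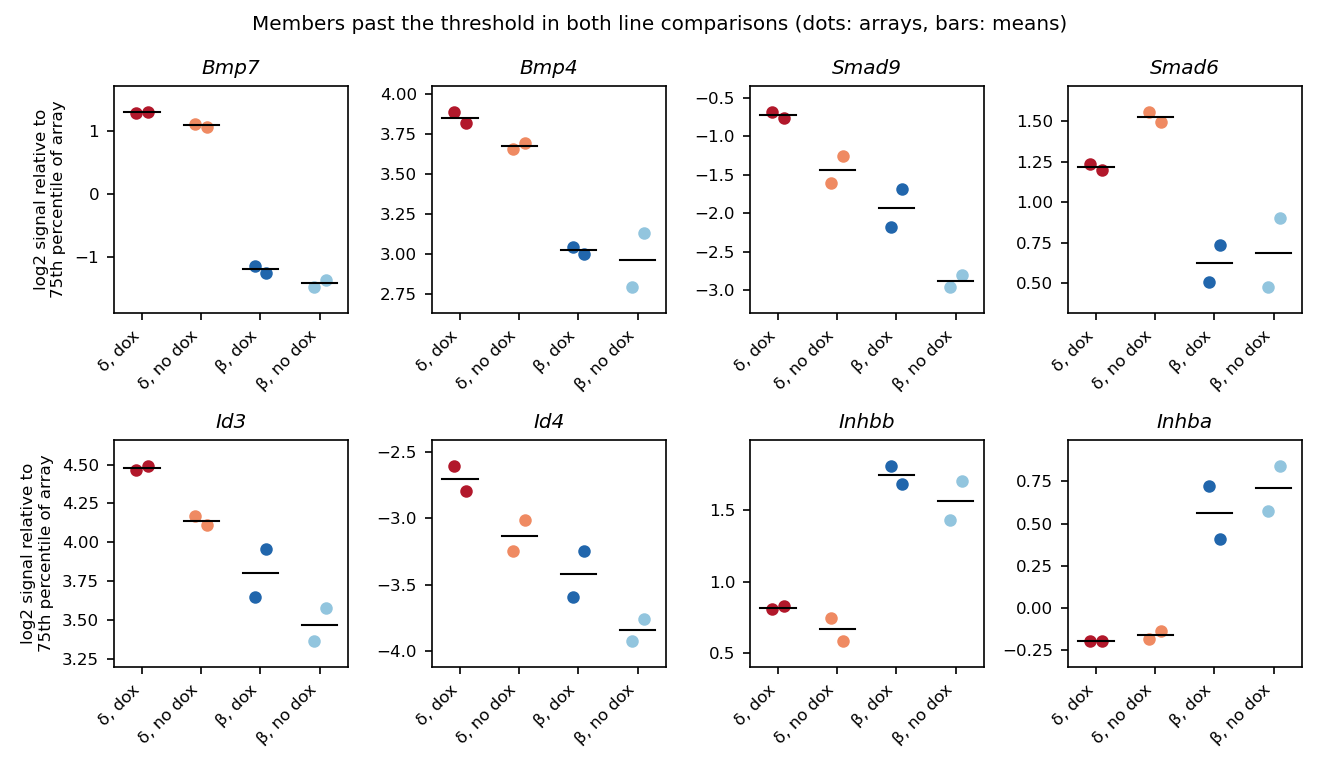
Levels of the 8 members past the threshold in both line comparisons, 1 panel a gene. Each dot is an array on a log2 axis relative to the 75th percentile of its array, bars are group means (2 arrays a group), and the order is δ and then β, each with and without doxycycline; the 4 δ arrays of Bmp7 lie between 1.08 and 1.30 and its 4 β arrays between -1.48 and -1.14.

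Of 6 type I receptor genes tested, Tgfbr1, which encodes the TGF-beta type I receptor, passed with doxycycline only. Its log2 levels were 1.06 and 1.12 in δ with doxycycline and 1.15 and 1.12 in δ without it, against 0.32 and 0.45 in β with doxycycline and 0.99 and 0.86 in β without it. The β arrays with doxycycline were the low ones. The line difference was 0.71 ± 0.0992 (SE) with doxycycline and 0.22 ± 0.0992 without it (limma adjusted p = 0.00448 and 0.204). A second Tgfbr1 probe gave another pattern in a fit over all kept probes, with a line difference of 0.14 with and 0.56 without doxycycline (limma adjusted p = 0.353 and 0.00993). Averaged over both probes the difference with doxycycline was 0.42. Acvr1, a type I receptor of BMPs and activins named for its bright probe, had log2 levels of 3.38 and 3.35 in δ with doxycycline and 3.40 and 3.29 in δ without it, against 3.53 and 3.41 in β with doxycycline and 3.07 and 3.31 in β without it. Its line differences of -0.10 and 0.16 did not pass, and those of Acvr1b, Acvrl1, Bmpr1a and Bmpr1b lay between -0.50 and 0.27 with doxycycline and between -0.65 and 0.69 without it.

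Of 5 type II and III receptor genes, 1 was higher in the δ line in each comparison, and not the same one. Tgfbr3 encodes betaglycan, a co-receptor that presents TGF-beta. It had log2 levels of 2.63 and 2.48 in δ with doxycycline and 2.25 in δ without it, against 1.94 and 1.78 in β with doxycycline and 1.76 and 1.93 in β without it. The difference was 0.70 ± 0.122 (SE) with doxycycline and 0.40 ± 0.15 without it, the missing spot leaving 3 residual degrees of freedom (limma adjusted p = 0.0153 and 0.142). Acvr2b, an activin type II receptor gene, stood at 1.39 and 1.27 in δ with doxycycline and 1.49 and 1.36 in δ without it, against 1.11 and 0.81 in β with doxycycline and 0.78 and 0.88 in β without it. All its δ arrays were above all its β arrays, while the difference passed only without doxycycline, at 0.59 ± 0.13, and was 0.37 ± 0.13 with it (limma adjusted p = 0.026 and 0.0902). Tgfbr2, the TGF-beta type II receptor gene with the brightest probe of this group, had 3.01 and 2.90 in δ with doxycycline and 3.03 and 3.01 in δ without it, against 2.86 and 2.85 in β with doxycycline and 2.94 and 3.10 in β without it, and differed by 0.10 and 0.00. Whether the line difference of Tgfbr1, Tgfbr3 or Acvr2b itself depended on doxycycline was tested as an interaction, and none passed (limma adjusted p = 0.521 for Tgfbr1, with a log2 difference of 0.49).

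Of 8 SMAD genes, 2 were higher in the δ line in both comparisons and none was lower. Smad9, a receptor-regulated SMAD of the BMP branch, had log2 levels of -0.69 and -0.76 in δ with doxycycline and -1.60 and -1.26 in δ without it, against -2.18 and -1.68 in β with doxycycline and -2.96 and -2.80 in β without it. The 4 groups did not overlap, with all δ arrays above all β arrays and the treated arrays above the untreated ones in each line. The line difference was 1.20 ± 0.19 (SE) with doxycycline and 1.45 ± 0.19 without it (limma adjusted p = 0.0071 and 0.00331). Smad6, the inhibitory SMAD of the BMP branch, had 1.23 and 1.20 in δ with doxycycline and 1.55 and 1.49 in δ without it, against 0.51 and 0.74 in β with doxycycline and 0.48 and 0.90 in β without it. Its β arrays spread more than its δ arrays but did not reach them, and the difference was 0.59 ± 0.157 with doxycycline and 0.83 ± 0.157 without it (limma adjusted p = 0.0422 and 0.0145). Smad3, of the TGF-beta branch, had 3.89 and 3.67 in δ with doxycycline and 3.76 and 3.77 in δ without it, against 3.27 and 3.46 in β with doxycycline and 3.52 and 3.83 in β without it, and did not pass. Smad1, Smad2, Smad4, Smad5 and Smad7 differed by between 0.08 and 0.45 with doxycycline and between -0.01 and 0.37 without it, and none passed. For Smad4 the brightest probe differed by 0.29 with doxycycline, while 2 of its other 3 probes passed in the fit over probes, at 1.29 and 0.69 (limma adjusted p = 0.00155 and 0.0232), so its probes disagree in size.

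Of the 4 ID genes, Id3 and Id4 were higher in the δ line in both comparisons and Id1 with doxycycline. Id3 had log2 levels of 4.46 and 4.49 in δ with doxycycline and 4.17 and 4.11 in δ without it, against 3.64 and 3.96 in β with doxycycline and 3.36 and 3.58 in β without it. Id4 stood at -2.61 and -2.80 in δ with doxycycline and -3.24 and -3.02 in δ without it, against -3.59 and -3.25 in β with doxycycline and -3.92 and -3.76 in β without it. In both genes the δ arrays with doxycycline were the highest of the 8 and the β arrays without it the lowest. The line difference with and without doxycycline was 0.68 ± 0.133 (SE) and 0.67 ± 0.133 for Id3 and 0.72 ± 0.156 and 0.71 ± 0.156 for Id4 (limma adjusted p between 0.0164 and 0.0261). Id1 had 5.94 and 5.97 in δ with doxycycline and 5.41 and 5.54 in δ without it, against 5.50 and 5.48 in β with doxycycline and 5.19 and 5.12 in β without it. The 2 treated δ arrays were the high ones, and the difference was 0.46 ± 0.0938 with doxycycline and 0.32 ± 0.0938 without it (limma adjusted p = 0.0182 and 0.065). Id2 differed by 0.05 and 0.09.

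Secreted antagonists showed no member past the threshold between the lines. The differences with and without doxycycline were -0.52 and 0.60 for Nog, which encodes noggin, -0.22 and -0.38 for Chrd, which encodes chordin, and 0.15 and 0.36 for Fst, which encodes the activin antagonist follistatin. Fstl1, a follistatin-like gene, had log2 levels of 5.81 and 5.62 in δ with doxycycline and 5.52 and 5.42 in δ without it, against 5.51 and 5.51 in β with doxycycline and 5.01 and 5.22 in β without it. It differed by 0.20 and 0.35. Of the genes taken up by the symbol rule alone, Bmp2k, which encodes a kinase inducible by BMP2, passed with doxycycline. It had 2.39 and 2.33 in δ with doxycycline and 2.15 and 2.25 in δ without it, against 1.97 and 1.87 in β with doxycycline and 1.76 and 1.94 in β without it, with a difference of 0.44 ± 0.105 (SE) and 0.36 ± 0.105 (limma adjusted p = 0.0306 and 0.07). Bmp1, a protease that cleaves chordin and procollagens, differed by 0.08 with doxycycline on its brightest probe, by 0.62 on another probe, which passed, and by -0.53 on the remaining one, which did not (limma adjusted p = 0.629, 0.0219 and 0.209, those of the other probes from the fit over probes).

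**Figure D2:**
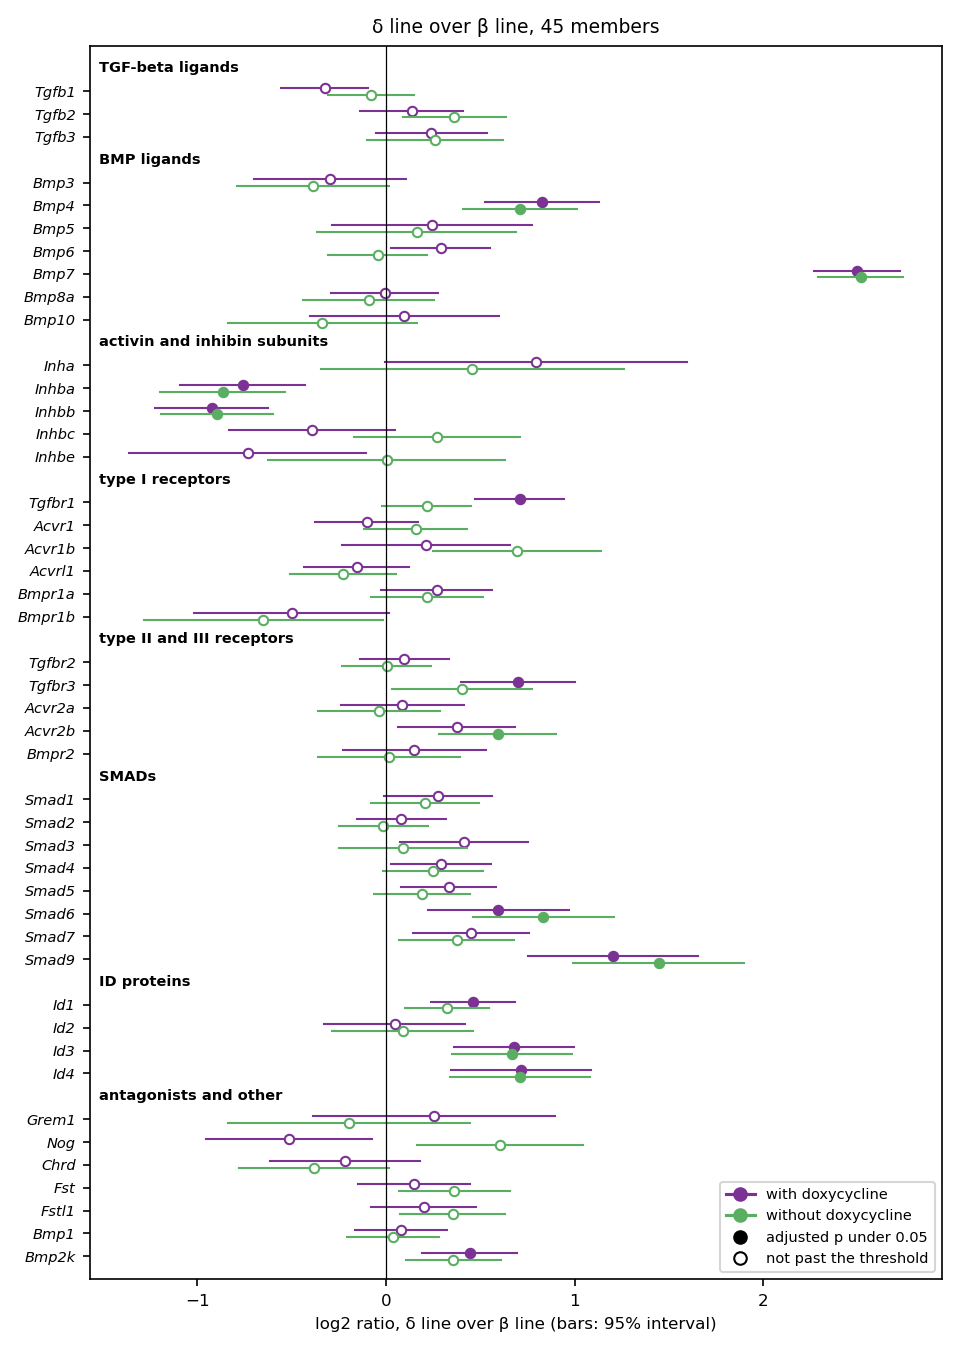
Log2 ratio of the δ line over the β line for the 45 tested members, grouped by role; purple is with and green without doxycycline, dots are estimates, bars are 95% intervals from the limma fit, and filled dots passed the adjusted threshold of 0.05. Bmp7 stands apart at 2.50 and 2.52, the other filled dots lie between -0.92 and 1.45, and the filled dots of Inhba and Inhbb are the 4 below 0.

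Of the 21 line differences called among members, 7 held in every fit tried: those of Bmp7 and Inhbb in both comparisons and those of Bmp4, Smad9 and Inhba without doxycycline. For the comparison with doxycycline, the replicates named next are the treated arrays. Leaving out any 1 of these 4 arrays ended calls of members, and fewer of all genes tested passed as well. Without δ replicate 1 the calls of Bmp4 (log2 difference 0.79), Smad9 (1.17), Inhba (-0.76), Id3 (0.69), Id4 (0.62) and Smad6 (0.58) with doxycycline were lost, at limma adjusted p between 0.0618 and 0.207. Id3 and Id4 also lost that call without δ replicate 2 (0.67 and 0.81) and without β replicate 1 (0.52 and 0.54), as did Inhba (-0.76 and -0.60). Without doxycycline, leaving out δ replicate 1 ended the calls of Smad6 (0.80), Id3 (0.64) and Acvr2b (0.52), and leaving out β replicate 1 those of Id3 (0.56), Id4 (0.63) and Acvr2b (0.54). With an array left out, Acvr2b and Id4 without doxycycline passed in 3 of 8 fits and Id3 in 5. Calls without doxycycline also ended when a treated δ array was left out, as the spread is shared over all arrays. Those of Id3, Id4 and Acvr2b ended without treated δ replicate 1, and those of Id4 and Acvr2b without treated δ replicate 2. Id1 (0.45 to 0.48), Bmp2k (0.39 to 0.50) and Smad6 (0.48 to 0.71) lost the call with doxycycline without any of the 4 treated arrays, Tgfbr3 (0.62 to 0.77) without 3 of them, β replicate 1 being the exception, and Tgfbr1 (0.68) without δ replicate 2. The sign stayed the same in every fit. In the main fit, the other 29 tested members passed in none of the 6 contrasts described here. Some of them passed between the lines in other fits. With doxycycline, Smad7 did with quantile scaling, the mean over probes, an intensity trend and a fit of 4 arrays. Smad7 and Tgfb1 also did with a filter asking for all arrays above background, and Tgfb1 with quantile scaling and the trend. With the trend, 16 of 45 members and 4505 of 19068 genes passed there. Acvr1b passed without doxycycline with that filter.

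Within a line, no member passed the threshold for doxycycline over no doxycycline in limma. The δ line had 0 members of 45, against 0.346% of all genes tested, and at an unadjusted p under 0.05 there were 9 members higher and 2 lower, against 11.4% and 5.21% of all genes, together 16.6%. The β line had 0 of 45, against 1.74% of all genes, and at an unadjusted p under 0.05 there were 10 higher and 2 lower, against 11.3% and 9.47% of all genes, together 20.7%. The largest differences with an unadjusted p under 0.05 in the β line were those of Nog (0.99), Smad9 (0.95) and Bmpr1b (0.91), leaving out Grem1 in both lines, whose untreated arrays were all not well above background, so that no fold is given, and Tgfbr1 (-0.54) and Bmp6 (-0.55) were the 2 lower ones. In the δ line these were Bmpr1b (1.06) and Smad9 (0.71), with Acvr1b (-0.45) and Tgfb1 (-0.40) lower. In other fits some of these passed in the β line: Nog, Smad9 and Tgfbr1 did with normexp background correction, with a filter that asked for all arrays above background and with an intensity trend, at 4 members in each of the 3. These were 4 of 45, 4 of 43 and 4 of 45 members, against 559 of 19068, 704 of 17085 and 897 of 19068 genes.

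Nog and Tgfbr1 were the members whose doxycycline effect differed most between the lines by unadjusted p. Nog had log2 levels of 0.28 and 0.28 in δ with doxycycline and 0.54 and 0.27 in δ without it, against 0.98 and 0.61 in β with doxycycline and -0.40 and 0.00 in β without it. The treated β arrays were the highest and the untreated β arrays the lowest, while the δ arrays lay between them. The doxycycline effect in the δ line minus that in the β line was -1.12 ± 0.261 (SE) for Nog and 0.49 ± 0.14 for Tgfbr1 (limma adjusted p = 0.521 for each). The second Tgfbr1 probe gave a doxycycline effect of 0.50 in the β line, opposite in sign to the -0.54 of the brightest probe. No member passed this test of the difference in limma, 0 of 45 against 0.0262% of all genes; 3 members had an unadjusted p under 0.05, with 9.56% of all genes.

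Averaged over both lines with equal weight, Smad9, Id1, Bmpr1b and Grem1 were higher with doxycycline and Bmp6 lower, 5 of 45 members or 11.1%, against 5.77% of all genes tested. Grem1 was tested only because both treated δ arrays, where it was highest, were well above background, so its call adds no support. A filter asking for all arrays above background left Grem1 out. With it 5 of 43 members passed, Tgfbr1 in place of Grem1, and 1332 of 17085 genes. Higher were 4 of 45 members and 3.46% of all genes, and lower were 1 member and 2.31% of all genes. With no filter on dim probes that split over all genes turned round, to 853 higher and 1680 lower. The median log2 difference over the members was 0.12, while that over all genes was 0.03. Smad9 differed by 0.83 ± 0.134 (SE), with the 4 treated arrays above the untreated arrays of their own line, as listed above (limma adjusted p = 0.0237). Id1 differed by 0.41 ± 0.0663, with the same separation within each line (limma adjusted p = 0.0239). The other 2 Id genes with differences of that size, Id3 at 0.33 and Id4 at 0.42, did not pass (limma adjusted p = 0.0913 and 0.0746).

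Bmpr1b encodes a BMP type I receptor. It had log2 levels of -3.15 and -3.60 in δ with doxycycline and -4.43 in δ without it, against -2.83 and -2.92 in β with doxycycline and -4.0 and -3.55 in β without it. In both lines the treated arrays were the higher ones, the untreated δ level resting on 1 array, and the difference was 0.98 ± 0.166 (SE; limma adjusted p = 0.034). Bmp6, a BMP ligand gene, had 0.41 and 0.36 in δ with doxycycline and 0.54 and 0.66 in δ without it, against 0.21 and -0.01 in β with doxycycline and 0.64 and 0.65 in β without it. The treated arrays were the lower ones in each line, and the difference was -0.38 ± 0.0776 (limma adjusted p = 0.0429). Grem1, which encodes the BMP antagonist gremlin, had measured log2 levels of -5.45 and -5.90 in δ with doxycycline and -6.73 and -7.52 in δ without it, against -5.90 and -5.95 in β with doxycycline and -7.05 and -6.82 in β without it. It passed (limma adjusted p = 0.0211), but only the 2 treated δ arrays were well above background, so no fold is given.

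**Figure D3:**
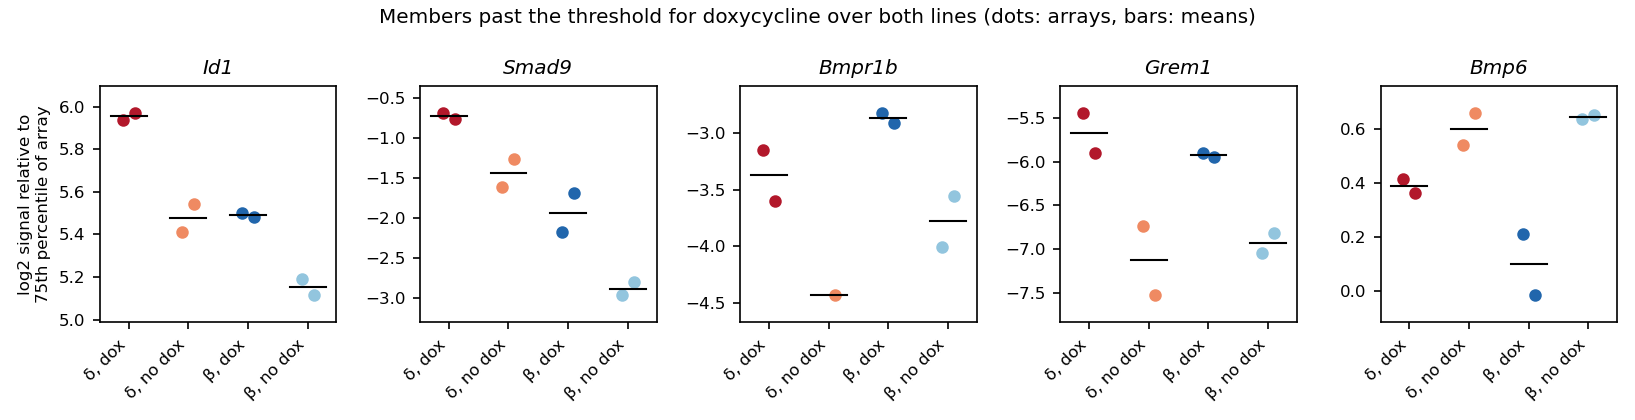
Levels of the 5 members past the threshold for doxycycline averaged over both lines. Dots are arrays on a log2 axis relative to the 75th percentile of the array and bars are group means (2 arrays a group, 1 for Bmpr1b in δ without doxycycline); in Id1, Smad9, Bmpr1b and Grem1 the dots with doxycycline lie above those of the same line without it, and in Bmp6 below.

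None of these 5 calls held in every fit. Bmp6 did not pass with any of the 8 arrays left out (log2 difference -0.43 to -0.32, limma adjusted p between 0.0545 and 0.182), and none of the 5 passed without treated δ replicate 1, treated δ replicate 2 or treated β replicate 2. Normexp background correction lowered the difference of Bmpr1b to 0.635 (limma adjusted p = 0.0157) and ended the call of Grem1 (limma adjusted p = 0.2). The arrays with doxycycline also had more probes well above background, and the part of this in the rise of genes with dim probes was not tested.

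**Figure D4:**
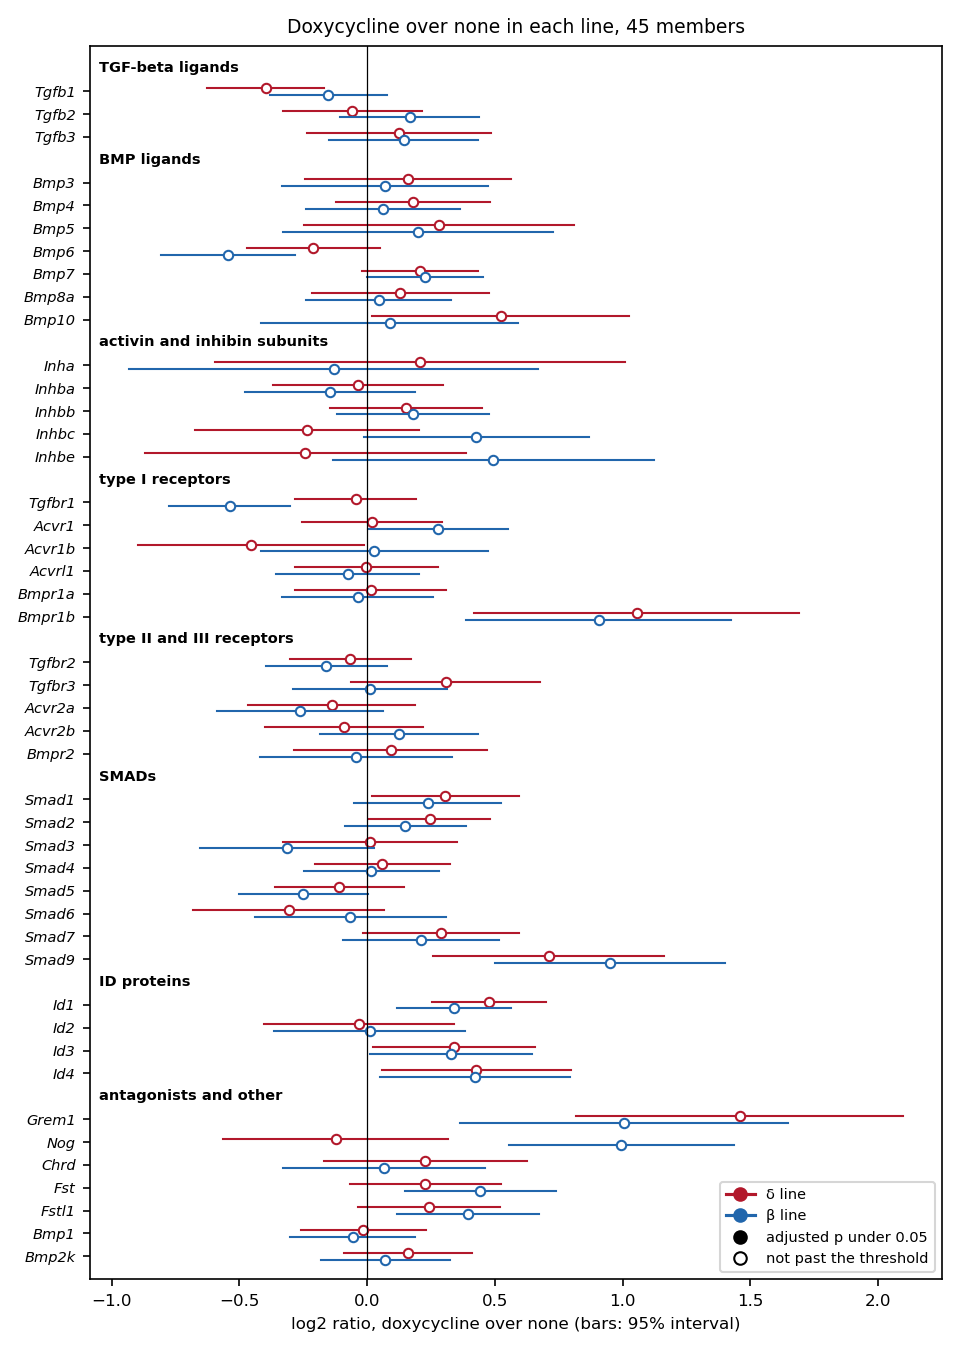
Log2 ratio of cells with doxycycline over cells without it for the 45 tested members, grouped by role, red for the δ line and blue for the β line, with dots for estimates and bars for 95% intervals from the limma fit. All dots are open because none passed the adjusted threshold of 0.05; Nog lies at -0.12 in the δ line and at 0.99 in the β line, and Grem1 is drawn from measured levels that were well above background only on the treated δ arrays.

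Other genes of the pathway were taken from a list of 74, of which 67 were tested. With doxycycline, 10 were higher and 3 lower in the δ line than in the β line, 19.4% against 19.1% of all genes tested, and without doxycycline 7 were higher and 4 lower, 16.4% against 15.2%. Amhr2, which encodes the type II receptor of anti-Müllerian hormone, had log2 levels of 3.43 and 3.41 in δ with doxycycline and 2.79 and 3.16 in δ without it, against 1.94 and 1.84 in β with doxycycline and 1.04 and 1.21 in β without it. All δ arrays were above all β arrays, with a difference of 1.53 ± 0.14 (SE) with doxycycline and 1.85 ± 0.14 without it (limma adjusted p = 0.000776 and 0.000296). Hey1, a transcriptional repressor gene that BMP and Notch signalling induce, was higher by 0.94 and 0.92, and Tgif2, which encodes a SMAD corepressor, by 0.86 and 0.73. Hey1 was 1 of 12 target genes on the list, of which 2 passed as higher and 1 as lower in each comparison (25%). Their median log2 difference was -0.13 with doxycycline and -0.07 without it. Thbs1, whose product thrombospondin can activate latent TGF-beta, was higher by 0.59 and 0.51, and Nbl1, a BMP antagonist gene, by 0.60 without doxycycline.

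Fewer of these genes passed as lower in the δ line. Ccn2, which encodes connective tissue growth factor and is a known TGF-beta target, had log2 levels of 3.80 and 3.76 in δ with doxycycline and 3.76 and 3.85 in δ without it, against 4.64 and 4.52 in β with doxycycline and 4.43 and 4.59 in β without it. All δ arrays were below all β arrays, with a log2 difference of -0.80 ± 0.103 (SE) with doxycycline and -0.71 ± 0.103 without it (limma adjusted p = 0.00329 and 0.00535). Cd109, a TGF-beta co-receptor gene that limits signalling, differed by -0.85 and -0.93, its δ level without doxycycline resting on 1 array. Rgma, a BMP co-receptor gene, differed by -0.79 with doxycycline. Without doxycycline, Usp15, a deubiquitinase gene of the pathway, differed by -0.43 and Fstl3, a follistatin-like activin antagonist gene, by -0.62.

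**Figure D5:**
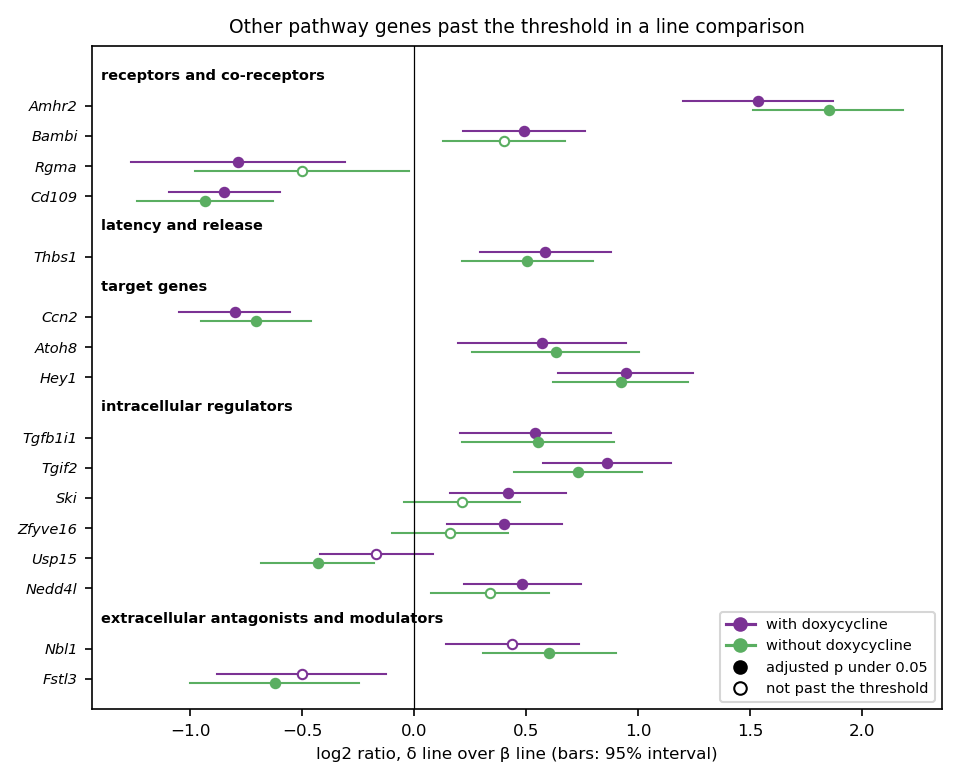
Log2 ratio of the δ line over the β line for the 16 other pathway genes past the threshold in at least 1 line comparison, grouped by role, purple with and green without doxycycline. Dots are estimates, bars are 95% intervals from the limma fit and filled dots passed the adjusted threshold of 0.05; Amhr2 is the highest at 1.53 and 1.85, and the filled dots below 0 lie between -0.93 and -0.43.

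Within the lines, doxycycline changed 1 of these other genes past the threshold. In the δ line none of 67 passed in limma, against 0.346% of all genes, and at an unadjusted p under 0.05 there were 12 higher and 0 lower, against 11.4% and 5.21% of all genes. In the β line 1 passed, against 1.74% of all genes: Runx2, an osteoblast transcription factor gene downstream of BMPs, higher by 0.66 ± 0.1 (SE; limma adjusted p = 0.0395). Averaged over both lines 7 were higher and 0 lower, 10.4% against 5.77% of all genes tested. They were led by Smurf2, which encodes a ubiquitin ligase that targets SMADs and receptors (0.53), Runx2 (0.46), Amhr2 (0.60) and Crim1 (0.39). None passed the test of a difference between the lines in the doxycycline effect, where 0 were higher and 2 lower at an unadjusted p under 0.05, with 9.56% of all genes in either direction.

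Markers of thymic and other cell types also differed between the lines, and single genes carried some of the sums. The summed linear level of 5 general epithelial genes, relative to the 75th percentile, was 9.94 to 9.95 in δ with doxycycline and 9.56 to 9.79 in δ without it, against 22.9 to 23.4 in β with doxycycline and 24.3 to 26.3 in β without it. Krt8 differed by -2.11 and -1.92 on the log2 scale with and without doxycycline and passed in both comparisons, and Krt18 passed without doxycycline only, at -0.79. The sum over 7 medullary thymic epithelial genes was 4.38 to 5.36 in δ with doxycycline and 5.28 to 5.44 in δ without it, against 30.4 to 35.4 in β with doxycycline and 33.3 to 38.8 in β without it. That gap lay almost entirely in Krt14 (-3.67 and -3.79), while Aire (-0.14 and 0.03) and Krt5 (-0.06 and -0.12) did not pass. Tnfrsf11a passed as lower in both comparisons (-0.51 and -0.39) and Cldn4 with doxycycline (-0.48).

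The endothelial sum over 5 genes was 5.51 to 5.67 in δ with doxycycline and 3.69 to 3.74 in δ without it, against 2.23 to 2.42 in β with doxycycline and 1.5 to 1.92 in β without it. Kdr carried it (1.54 and 1.83, passing in both). Tek also passed as higher in the δ line without doxycycline, where neither β array was well above background, so no fold is given. With doxycycline Tek differed by 1.29 and did not pass. Pecam1 (-0.09 and -0.44) and Cdh5 (0.37 and -2.10) did not pass, and Emcn was well above background on no array. The untreated β arrays of Cdh5 disagreed, at -5.10 and -0.97. The sum over 5 macrophage genes was 5.54 to 6.12 in δ with doxycycline and 5.70 to 6.51 in δ without it, against 9.09 to 10.2 in β with doxycycline and 6.27 to 6.44 in β without it. Of its 3 tested genes, Cd68, Csf1r and Lyz2, all 3 were lower in the δ line with doxycycline and 2, Cd68 and Lyz2, without it, with no overlap of the sums only in the treated arrays. Lyz2 was well above background on no δ array and was tested only through the treated β arrays, so its calls add no support.

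The sum over 9 fibroblast genes was 533 to 549 in δ with doxycycline and 502 to 526 in δ without it, against 563 to 640 in β with doxycycline and 518 to 551 in β without it, with 2 genes higher and 2 lower in the δ line with doxycycline and 2 higher and 1 lower without it. The largest differences went opposite ways: Pdgfrb by 2.26 and 2.63, and Thy1, with 1 array in each δ group, by -2.15 and -2.08. The cortical sum over 9 genes was 64.6 to 66.6 in δ with doxycycline and 49.3 to 54.8 in δ without it, against 60.3 to 69.3 in β with doxycycline and 56.8 to 67.6 in β without it. Prss16 was the cortical gene that passed, lower in the δ line in both comparisons (-0.86 and -1.27). The sum over 8 thymocyte genes was 18.3 to 19.9 in δ with doxycycline and 16.3 to 19.8 in δ without it, against 22.1 to 33.2 in β with doxycycline and 19.7 to 21.3 in β without it, and Lck passed as lower with doxycycline (-0.51). The part of these marker shifts in the line differences of the pathway genes was not tested.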

How the data were processed

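RNA of TEC100.4 cells was labelled with Cy3 from 200 ng of total RNA and read on 1-colour arrays, per the labels' protocols. Per the file headers, the authors ran version 11.5.1.1 of Agilent Feature Extraction, where the submitters' processing notes give 11.5.11. Each deposited intensity is on a linear scale, with background and spatial trend removed by that software and arrays not yet scaled to each other. Its multiplicative detrending term was 0 on both δ arrays with doxycycline and on treated β replicate 2, 0.0811 on treated β replicate 1 and 0.0671 to 0.126 on the untreated arrays. Groups follow the titles; for untreated samples the genotype label instead names wild type TFII-I.

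Control and outlier spots were left out, spots of a probe were averaged as log2, and the 75th percentile of every array was set to 0. Areas of 8 by 8 spots whose median deviated by over 0.3 on the log2 scale were treated as missing on that array. RefSeq accessions (GRCm38.p6) named 32994 of 56605 probes and left 23611 unnamed; the files name mm9, so no RefSeq coordinates other than those of promoters are given. A probe was kept if both arrays of some group were well above background (27300 probes), with the brightest per gene. limma 3.58.1 (lmFit, eBayes) in R 4.3.3 fitted 4 group means to 8 arrays, with 6 contrasts and Benjamini-Hochberg adjustment over 19068 genes. The same procedure was run on simulated data with independent noise. These data held no array or slide effects, so that run cannot tell how such effects bear on the calls. A reading of a probe not well above background on any array of a group is only a bound.

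Arrays of a group correlated at 0.993 to 0.997 across genes and none were identical. Array codes end in numbers shared by treated and untreated arrays, but deviations of same-numbered arrays correlated at only 0.013 in the β line and 0.040 in the δ line, so the arrays were not treated as pairs. Alternatives were quantile and median scaling, normexp on the median spot signal (no mean signal is in the files), other filters, the mean over probes, other handling of defective areas, an intensity trend, a replicate block, fits of 4 arrays and leaving out each array.

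Members and lists were chosen with earlier results of these data known. Per-array values are given for members past the threshold in any contrast and for the brightest probe of each role, and among other pathway genes up to 4 per direction are named by smallest p; values of Nog were added after they were seen. One gene of the list of other pathway genes is not reported here, and the counts of that list leave it out.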

Additional observations from a re-analysis of the deposited data

How the results depend on the processing

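Counts of genes past the adjusted threshold depended on the processing, and so did the share of them called higher. The member results whose signs are followed below were picked because they had passed in the main fit. Their steady signs therefore say nothing of other genes. For doxycycline in the β line (332 genes) the count was 123 with median centring, 559 with normexp background correction, 60 with no filter, 704 with a filter asking for all arrays above background, 97 with the mean over probes, 47 with defective areas kept, 897 with an intensity trend and 60 with 4 arrays, and members called (0) became 4 with normexp, 4 with the all-array filter and 4 with the trend. For the δ line (66 genes) these counts were 38 with median centring, 953 with no filter, 107 with the all-array filter, 14 with defective areas kept, 166 with the trend and 1 with 4 arrays, and 1 member (Grem1) passed with no filter. For both lines together (1100 genes, 5 members) they were 502 with median centring, 2533 with no filter, 657 with the mean over probes and 596 with defective areas kept, and members were 2 with quantile scaling, 2 with median centring, 3 with the mean over probes and 10 with the trend. For the difference between the lines in the doxycycline effect (5 genes) they were 0 with the all-array filter, 1 with defective areas kept, 1 with their probes left out and 0 with the trend, and 4 arrays gave 1647 genes between the lines without doxycycline (2896). With the replicate block, genes called were 0 for β cells, 1 for δ cells, 29 over both and 1 for the difference, and members over both lines were 0; no block could be made between the lines, where the numbers are not shared. With 1 array left out, genes and members ranged from 2 to 361 and 0 to 0 in the β line, 13 to 631 and 0 to 1 in the δ line, 103 to 1236 and 0 to 4 over both, 11 to 230 and 0 to 0 for the difference, 1826 to 2729 and 6 to 10 between the lines without doxycycline, and 1049 to 4198 and 3 to 14 with it. The share of higher calls in the β line was 57.5%, but 43.9% with median centring and 46.8% with defective areas kept, 62.4% between the treated lines became 72.4% with median centring, and with no filter 59.9% over both lines became 33.7% and 33.3% in the δ line 15.6%. Leaving out untreated δ replicate 2 made the δ share 73.4%. Of 463 values of the 26 called member results under these alternatives, 368 stayed past the threshold, 95 did not and 0 changed sign. Id4 fell short with normexp (log2 difference 0.38 with and 0.42 without doxycycline), and without doxycycline also with quantile scaling and median centring. Smad6 with doxycycline fell short in 4 of 10 processing fits (limma adjusted p up to 0.0655). These were median centring, no filter, the mean over probes and defective areas kept. Bmp2k with doxycycline fell short with the mean over probes, and Tgfbr3 with doxycycline with defective areas kept (limma adjusted p = 0.434). The causes were not tested, and 2 arrays a group limit the precision.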
